A study of Mus musculus with 33 samples.

Results

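The proteasome subunit genes of mouse liver were described across 7 groups of liver and liver tumour RNA. A gene was a member if its symbol was Psma, Psmb, Psmc or Psmd followed by a number. Of 21671 genes in the deposited table, 39 matched, and 36 remained after Psmb8, Psmb9 and Psmb10, the immunoproteasome subunits, were set apart. By role these were 8 genes of the 20S alpha ring, 3 catalytic beta subunits, 5 other beta subunits with Psmb11 among them, 6 ATPases of the 19S cap and 14 genes named as non-ATPase subunits of the cap. The rule uses gene symbols only.

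Total RNA was sequenced from C57BL/6 mice, either wild type or carrying conditional alleles that Cre acts on in hepatocytes. At the early stage, 20 livers were taken 4 days after 1e11 particles of AAV8-TBG-CRE had been given to mice of 6 to 8 weeks. TBG, a hepatocyte promoter, drove Cre in all 4 groups of 5, wild type (WT) included. The EX3 livers carried b-cat Ex3, an allele from which Cre makes a stabilised beta-catenin, the MYC livers carried R26-lslMYC, a MYC transgene freed by Cre, and the MYC+EX3 livers carried both. At the late stage, 3 liver nodules came from Alb-CreERT2/R26-lslMYC mice (MYC tumours) and 3 from Alb-CreERT2/R26-lslMYC/b-catEx3 mice (MYC+EX3 tumours). Their reference was 7 WT livers taken 4 days after 4-OHT, the tamoxifen metabolite that activates CreERT2. The age of the tumours and of their reference mice is not given in the labels, so stage, treatment and tumour state cannot be told apart in those comparisons. The study asked how MYC and beta-catenin act together in liver tumour formation.

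The 26S proteasome degrades proteins tagged with ubiquitin. Its 20S core is a barrel of alpha rings around beta rings, and 3 beta subunits carry the proteolytic sites. The 19S cap binds ubiquitin chains, removes them and, with its ring of ATPases, unfolds the substrate and feeds it into the core. Dedicated chaperones build the core and the cap. Transcription of the subunit genes can be raised by NRF1, which acts at antioxidant response elements, and NRF2 binds similar elements. Hepatocytes make and degrade large amounts of protein.

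The promoters of 3 members are shown because the 2 DNA elements most tied to this subject fall in them or because the gene carries a result below. They were matched by symbol in the RefSeq promoter table of build GRCm38.p6, which held 29 of the 36 members. Each run is the 250 bases before the start that the table uses, 5′ to 3′ on the gene's strand. Capitals mark CACGTG, the E-box that MYC binds, and TGACNNNGC, the core of the antioxidant response element, each searched on both strands. The windows are chr2:61711444-61711693 (+) for Psmd14, chr5:123227940-123228189 (+) for Psmd9 and chr14:54617996-54618245 (-) for Psmb5.
Psmd14: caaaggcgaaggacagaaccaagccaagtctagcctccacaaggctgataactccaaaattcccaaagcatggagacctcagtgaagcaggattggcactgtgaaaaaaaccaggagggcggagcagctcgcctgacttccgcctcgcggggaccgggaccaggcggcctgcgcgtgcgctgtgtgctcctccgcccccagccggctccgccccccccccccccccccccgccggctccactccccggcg
Psmd9: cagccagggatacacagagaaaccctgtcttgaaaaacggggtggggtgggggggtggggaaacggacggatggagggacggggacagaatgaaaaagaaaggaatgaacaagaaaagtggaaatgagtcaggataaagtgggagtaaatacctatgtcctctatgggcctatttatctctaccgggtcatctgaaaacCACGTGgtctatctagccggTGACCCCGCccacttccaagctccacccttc
Psmb5: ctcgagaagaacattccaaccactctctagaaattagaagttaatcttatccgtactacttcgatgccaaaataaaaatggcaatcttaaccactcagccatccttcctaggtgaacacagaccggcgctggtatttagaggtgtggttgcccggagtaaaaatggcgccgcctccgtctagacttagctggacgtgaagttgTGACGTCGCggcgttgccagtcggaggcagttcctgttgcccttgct

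CACGTG was found in the promoters of 2 of the 29 members, Psma4 at 140 bases and Psmd9 at 51 bases before the start, and in 8.09% of the 27025 promoters of the table. Positions count from the table's start, which for Psma4 lies 78 bases inside the gene as the RefSeq gene table places it. TGACNNNGC was found in 5 of 29 (Psmb5, Psmb6, Psmc6, Psmd9 and Psmd12) and in 3781 of all 27025 promoters; it began 47 bases before the start in Psmb5 and 31 bases before it in Psmd9. CCGGAAG, the core read by ETS factors, was found in 10 of 29 members and in 9.93% of all promoters; of 12 motifs searched, it was picked for the text after its count was seen. CCAAT was found in 12 of 29 and in 41.1%. Those 4 motifs do not overlap one another in letters. Promoters of Psma8, Psmb1, Psmb2, Psmb7, Psmc3, Psmd3 and Psmd7 were not used here. A match is a string of letters and not a measured binding site.

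Levels are given in RPKM, reads scaled by gene length and by a library total, as deposited. Whole reads could be recovered from them. The day-4 livers held 3.75 to 7.31 M reads in genes, and the tumours and their reference 6.65 to 9.82 M. The library total behind RPKM was nearly all reads in genes at day 4 (at least 99.95%), but in the other set 22.2% to 29.6% of it lay in genes, so RPKM levels were compared only within each set. Within that other set the share was 22.2% to 26.5% in 4-OHT livers, 24.6% to 27.9% in MYC tumours and 25.6% to 29.6% in MYC+EX3 tumours. The highest share was that of MYC+EX3 tumour replicate 3. The part of this share in the tumour changes was not tested. Hepatocyte markers were abundant in all 7 groups: the summed RPKM of 8 hepatocyte markers was at least 1085 in every day-4 library and at least 191.9 in every tumour or reference library. Of the 20 day-4 libraries, 10 held Krt5, Krt14 and Krt17, keratins of skin, at a sum of 3.95 to 23.8 RPKM, and 10 held at most 0.398; the first set included 3 livers each of the WT, EX3 and MYC+EX3 groups and 1 MYC liver. A gene-level RPKM does not show the Ex3 recombination, and whether reads of the MYC transgene are counted in the Myc row is not given in the sources used here. The RNA came from whole tissue, in which fewer cells of a type and less RNA per cell cannot be told apart.

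Transcripts of the subunits were abundant in all groups. The 36 members together took 0.355% ± 0.0395 of gene reads in WT livers (SD, n = 5), 0.366% ± 0.0045 in EX3, 0.378% ± 0.0462 in MYC and 0.381% ± 0.031 in MYC+EX3 livers, which differ by less than the spread between livers. In the tumour set they took 0.300% ± 0.0256 in the 4-OHT livers (n = 7), 0.325% ± 0.0318 in MYC tumours (n = 3) and 0.342% ± 0.0163 in MYC+EX3 tumours (n = 3). In WT livers the highest was Psmb4, a structural beta subunit, at 156 ± 19.6 RPKM (SD, n = 5), followed by Psma4 at 121 ± 17.1 and the catalytic Psmb6 at 115 ± 11.0. At the foot of the order, Psmd10 stood at 13.2 ± 2.39 RPKM. Between these, most neighbours in the order were closer than their SD; gaps wider than the SD followed only Psmb4, Psma2, Psmb7, Psmb2, Psmd3 and Psmd10. Psmb4 was also the highest in 4-OHT livers (27.3 ± 4.37 RPKM, n = 7) and Psmd10 the lowest (3.90 ± 0.67), Psma8 and Psmb11 aside.

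Psma8, the alpha subunit of the testis proteasome, and Psmb11, the catalytic subunit of the thymus proteasome, were near the limit of detection. Psma8 was at 1.08 ± 0.528 RPKM and Psmb11 at 1.30 ± 0.266 in WT livers (SD, n = 5). In 4-OHT livers Psma8 ranged from 0.144 to 0.565 RPKM and Psmb11 from 0.323 to 0.401. A gene was tested if it reached 1 RPKM in at least 3 libraries of its set, which kept all 36 members at day 4 and 34 in the tumour set, without Psma8 and Psmb11. Psma8 was counted in the alpha ring, and Psmb11 among the other beta subunits although it is catalytic in the thymus. The own tissue of neither gene is liver.

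At day 4, with MYC or stabilised beta-catenin active, nearly all subunit genes stayed within the spread between livers, and a pair of cap genes moved with MYC. Psmd7 and Psmd14, the 2 partners that form the deubiquitinase of the 19S lid, rose in MYC against WT livers, and Psmd7 rose in MYC+EX3 livers. Of 36 members, 2 were called higher and none lower in MYC against WT by limma with Benjamini-Hochberg adjustment over 13688 genes, where 22.3% of all genes were called. In MYC+EX3 against WT 1 member was called, against 24.1% of all genes, and in MYC+EX3 against EX3 1 member, Psmd7, against 21.1%. None was called in EX3 against WT (0.132% of all genes) or in MYC+EX3 against MYC (0.19%); at an unadjusted p under 0.05 the numbers were 1 and 0 members, of 744 and 461 genes. Psmd7 was the 1 member of 36 whose MYC livers did not overlap the WT livers, against 13.3% of all genes, and likewise in MYC+EX3 livers, against 17.2%. The members' median log2 change was 0.07 in MYC against WT, beside 0.07 over all genes, and 0.09 in MYC+EX3 against WT, beside 0.05. The sign of these medians was not fixed: the first was -0.03 after the libraries were rescaled to a common median ratio, and the second -0.02 with sample quality weights and -0.09 without the keratin-holding libraries.

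For 32 of the 36 members the 95% interval of the change lay within 1.5-fold in either direction in MYC against WT, and likewise for 32 in MYC+EX3 against WT and for 35 in EX3 against WT. The test of whether the MYC effect differed with EX3 called no gene at all (0.0%), with 132 of 13688 genes and 0 members at an unadjusted p under 0.05; for 33 of 36 members its interval lay within 1.5-fold. The MYC against WT and MYC+EX3 against WT comparisons share their WT livers.

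**Figure D1:**
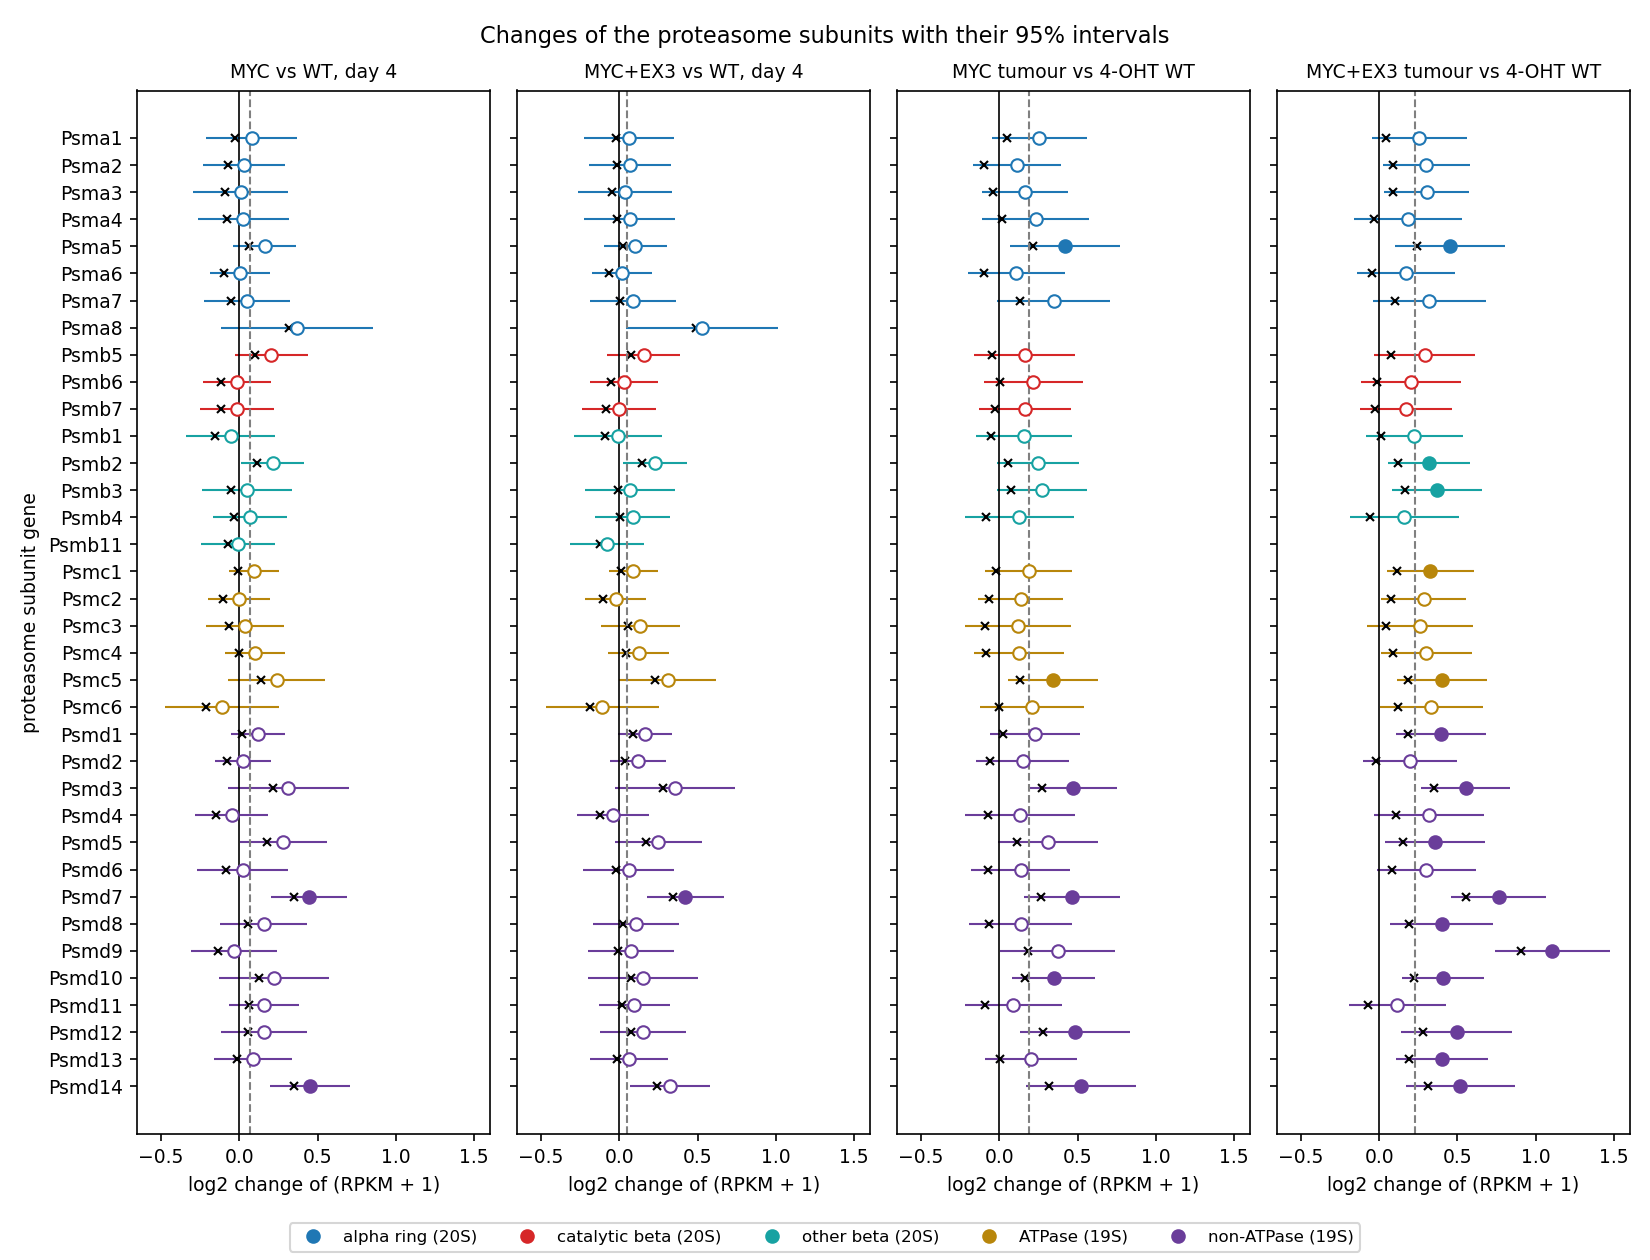
Log2 change of RPKM + 1 for each of the 36 subunit genes in 4 comparisons, with the 95% interval as a line and the role as colour; filled circles passed the adjusted p of 0.05, crosses give the value after rescaling the libraries to a common median ratio, and the dashed line is the median of all genes tested. Psmd7 and Psmd14 are filled at day 4, and 7 and 15 genes are filled in the tumour comparisons, while nearly all crosses lie to the left of their circles.

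The core's 3 catalytic subunits did not pass the test in any comparison. Psmb5, the chymotrypsin-like site, had 113, 72.4, 94.8, 107 and 80.2 RPKM in WT replicates 1 to 5 and 102, 105, 105, 129 and 93.3 in MYC livers. Its groups overlapped, and the log2 change was 0.20 with a 95% interval of -0.03 to 0.44 (limma, adjusted p = 0.205). Psmb5 ranged from 97.2 to 110 RPKM in EX3 and from 94.3 to 117 in MYC+EX3 livers.

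Psmb6, the caspase-like site, had 128, 103, 115, 124 and 105 RPKM in WT and 112, 112, 117, 136 and 94.0 in MYC livers. Psmb7, the trypsin-like site, had 38.9, 32.7, 32.4, 39.3 and 37.7 RPKM in WT and 32.6, 33.9, 37.0, 45.1 and 31.7 in MYC livers. The MYC values straddled the WT values for both genes, with log2 changes of -0.02 and -0.01.

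In the alpha ring no member was called at day 4, and 7 of the 8 changes in MYC against WT lay between 0.00 and 0.16 on the log2 scale. The largest was that of Psma8, with 0.948, 0.382, 1.31, 0.933 and 1.81 RPKM in WT and 1.73, 0.467, 2.58, 2.87 and 1.19 in MYC livers (log2 change 0.37, limma adjusted p = 0.277). The smallest was that of Psma6, with 75.3, 70.5, 67.6, 80.2 and 76.2 RPKM in WT and 67.7, 67.6, 73.1, 85.0 and 78.4 in MYC livers. The groups overlapped for both genes.

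Of the other beta subunits, Psmb2 had the largest day-4 change with MYC and Psmb1 the smallest. Psmb2 had 29.7, 22.4, 28.7, 31.6 and 24.8 RPKM in WT and 30.6, 31.5, 32.2, 35.2 and 29.5 in MYC livers (log2 change 0.21, limma adjusted p = 0.124). Psmb1 had 118, 92.3, 94.8, 115 and 103 RPKM in WT and 95.5, 97.6, 109, 128 and 77.3 in MYC livers (log2 change -0.05). The groups overlapped for both genes.

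Among the ATPases, Psmc5 and Psmc6 marked the 2 ends of the day-4 range. Psmc5 had 62.0, 38.8, 59.8, 59.9 and 49.7 RPKM in WT and 76.0, 74.0, 54.7, 51.4 and 63.1 in MYC livers (log2 change 0.24, limma adjusted p = 0.267). Psmc6 had 92.1, 78.3, 69.7, 101 and 96.0 RPKM in WT and 66.9, 66.1, 96.95, 119 and 64.9 in MYC livers (log2 change -0.11, adjusted p = 0.699). MYC replicates 1 and 2 were high for Psmc5 and low for Psmc6, and replicate 4 the reverse.

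The cap gene Psmd7, a metalloprotease-fold subunit of the lid without activity of its own, had 24.4, 20.7, 18.4, 26.0 and 23.4 RPKM in WT and 34.9, 26.3, 27.5, 38.9 and 28.6 in MYC livers. All 5 MYC livers lay above all 5 WT livers, and the log2 change was 0.45 (SE 0.12, limma adjusted p = 0.00897). In EX3 livers Psmd7 had 24.9, 22.2, 26.3, 22.8 and 22.1 RPKM, within the WT range but for 1 liver. In MYC+EX3 livers it had 29.7, 33.5, 27.7, 33.2 and 28.1 RPKM, again above every WT liver (log2 change 0.42, limma adjusted p = 0.0119).

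Psmd14, the zinc metalloprotease that cuts ubiquitin chains from the substrate, had 49.4, 37.4, 45.5, 61.9 and 57.5 RPKM in WT and 66.3, 60.2, 66.9, 87.4 and 62.5 in MYC livers. The groups overlapped by 1 liver each, and the log2 change was 0.45 (SE 0.12, limma adjusted p = 0.0118). In EX3 livers it ranged from 45.9 to 56.9 RPKM. In MYC+EX3 livers it had 57.1, 61.0, 64.5, 64.7 and 64.4 RPKM, with a log2 change of 0.32 that missed the threshold (limma adjusted p = 0.0607). Psmd4, a ubiquitin receptor of the cap, stood at the other end with 73.9, 47.4, 67.1, 69.7 and 61.1 RPKM in WT and 60.3, 66.5, 57.4, 70.7 and 52.0 in MYC livers (log2 change -0.05).

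The day-4 calls moved with the scaling, with the groups fitted and with a term for the title numbers. When the libraries were rescaled to a common median ratio, no member was called in MYC against WT (23.3% of all genes called) or in MYC+EX3 against WT (24.5%), and in MYC against WT Psmd7 and Psmd14 each had a log2 change of 0.35 (limma adjusted p = 0.0536 and 0.0600). In the authors' deposited table no member was called in MYC against WT, where 20.5% of genes were, or in MYC+EX3 against WT, where 27.8% were. MYC replicate 4, the MYC liver with keratins, had the largest member sum of all day-4 libraries (2894 RPKM); the part of that library's keratin content in these values was not tested. Without the keratin-holding libraries Psmd7 had an adjusted p of 0.111 in MYC against WT. With only the WT and MYC livers in the fit, the adjusted p was 0.0587 for Psmd7 and 0.0655 for Psmd14. With a depth term and rescaling together, 2 members were called in MYC against WT. The title numbers of 6 livers (1 WT, 2 EX3, 1 MYC and 2 MYC+EX3) form a run of their own, and the labels do not say what the numbers mark. None of these 6 held the keratins, and in the EX3 and MYC+EX3 groups every other liver did. Libraries with keratins had 3.75 to 5.10 M reads in genes and those without 4.39 to 7.31 M. Terms for keratins, depth and title numbers thus nearly coincide and are not independent checks. A term for that run left 2 members called in MYC against WT, whereas a block for the first digits of every title number left 0 members called in MYC or MYC+EX3 against WT, with log2 changes of 0.34 for Psmd7 and 0.33 for Psmd14 in MYC livers (limma adjusted p = 0.127 and 0.146).

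**Figure D2:**
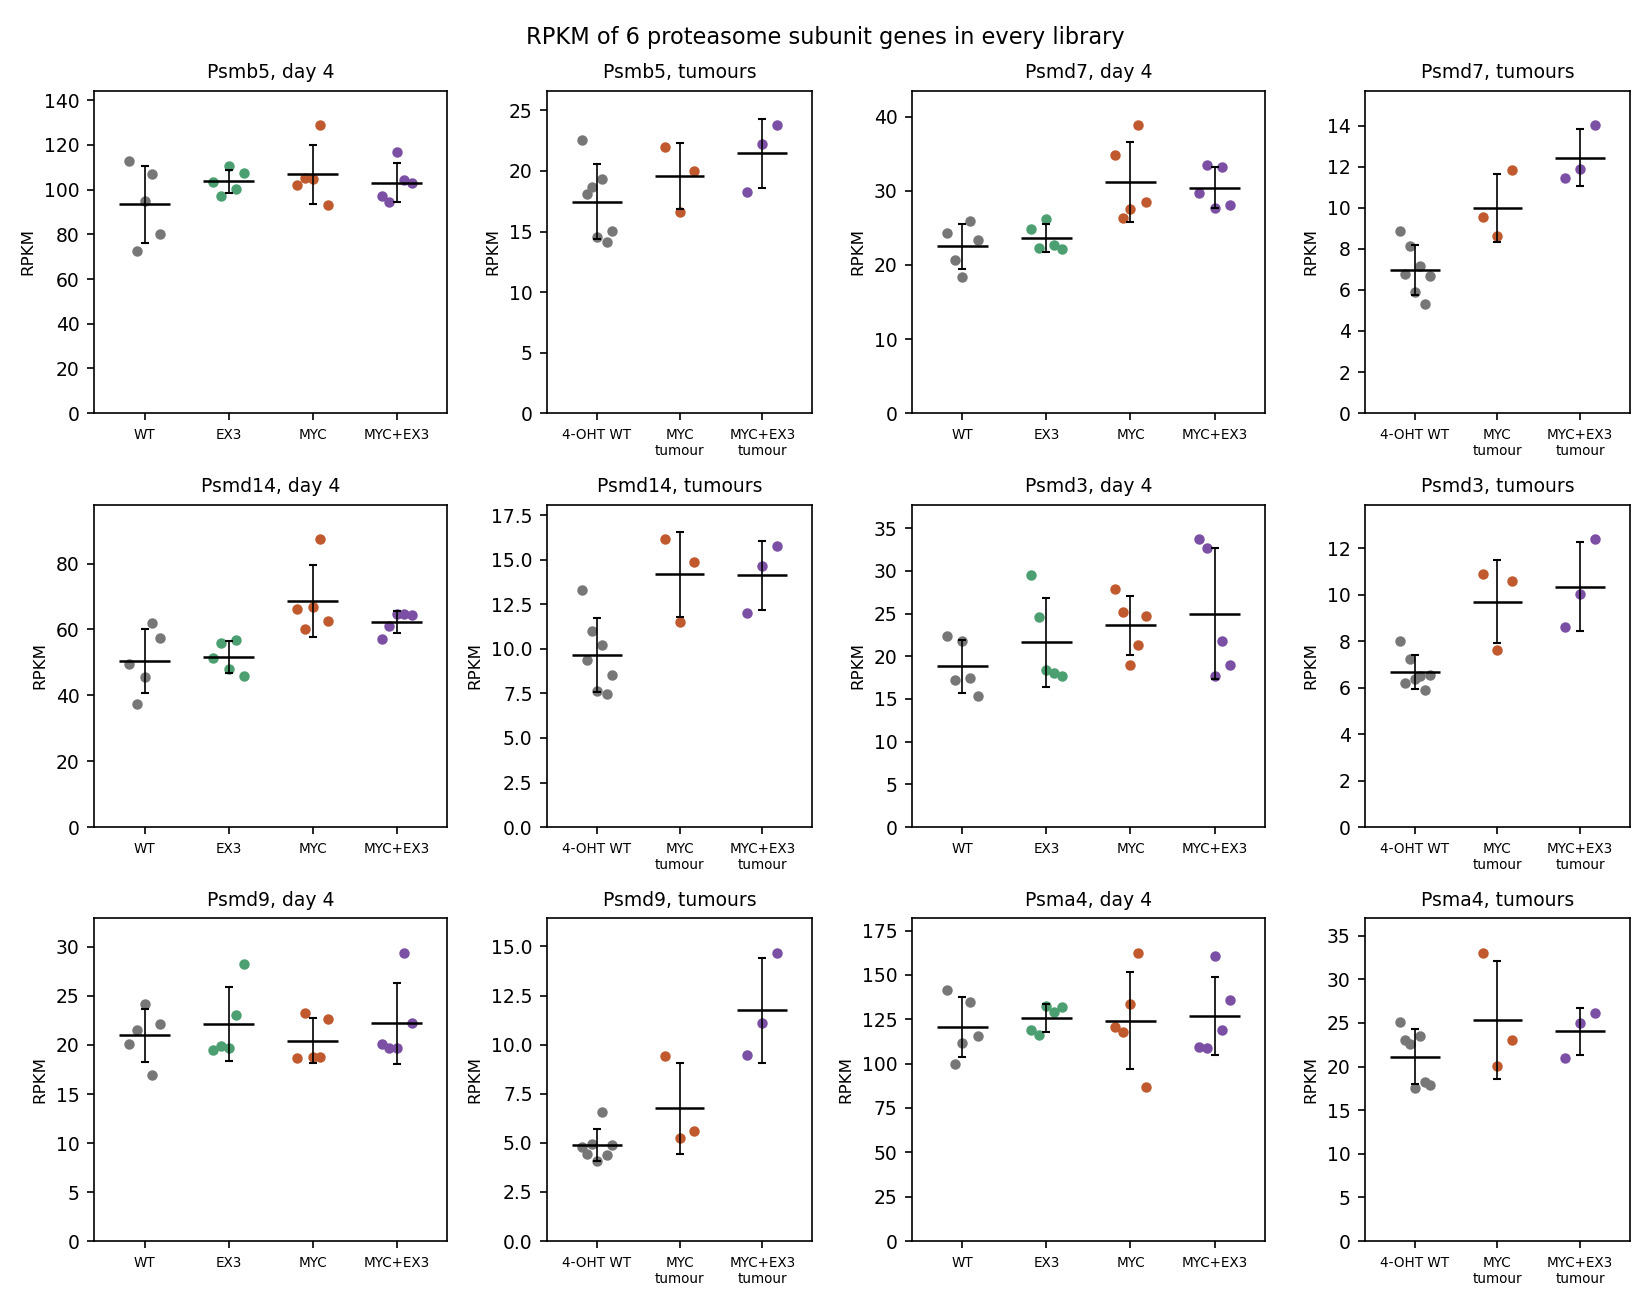
RPKM of 6 subunit genes in every library, with the mean as a bar and the SD as a whisker; day-4 groups hold 5 libraries each, the 4-OHT livers 7 and each tumour group 3. For Psmd7 the MYC and MYC+EX3 livers sit above the WT livers, for Psmd9 the 3 MYC+EX3 tumours sit above all 4-OHT livers, and for Psmb5 and Psma4 the groups overlap.

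In tumours more subunits were called higher than at day 4, by small amounts. Most of them were named as 19S cap genes, as were most members tested. The share of members called was below that of all genes in both comparisons with 4-OHT livers. MYC tumours had 7 of 34 members higher and none lower: Psma5, Psmc5, Psmd3, Psmd7, Psmd10, Psmd12 and Psmd14, with log2 changes of 0.34 to 0.52. In the same comparison 49.8% of 11854 genes were called. MYC+EX3 tumours had 15 of 34 higher and none lower, against 60.6% of all genes: the same 7 and Psmb2, Psmb3, Psmc1, Psmd1, Psmd5, Psmd8, Psmd9 and Psmd13. The members' median log2 change was 0.21 in MYC tumours, beside 0.19 over all genes, and 0.32 in MYC+EX3 tumours, beside 0.23. The 2 comparisons share the 4-OHT livers.

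By role, MYC tumours had called genes in 5 of 14 non-ATPase, 1 of 6 ATPase and 1 of 7 alpha subunits and in none of the 3 catalytic and 4 other beta subunits. MYC+EX3 tumours had 10 of 14 non-ATPase, 2 of 6 ATPase, 1 of 7 alpha, 2 of 4 other beta and none of 3 catalytic subunits. The median log2 change of the 14 non-ATPase genes was 0.27 and 0.40 in the 2 comparisons, and that of the 3 catalytic genes 0.16 and 0.20. After rescaling to a common median ratio these medians were 0.07 and 0.19 for the non-ATPase genes and -0.03 and -0.01 for the catalytic genes. Whether roles differ was not tested. The 95% interval lay within 1.5-fold for 24 of 34 members in MYC tumours and for 13 of 34 in MYC+EX3 tumours.

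Psmd9, a chaperone that holds an ATPase pair while the base of the cap is built, had the largest change of any member. It had 4.07 to 6.57 RPKM in the 7 4-OHT livers with a median of 4.81, then 9.44, 5.27 and 5.60 in MYC tumours and 9.45, 11.1 and 14.7 in MYC+EX3 tumours. Every MYC+EX3 tumour lay above every 4-OHT liver and above every MYC tumour. The log2 change against 4-OHT livers was 1.11 in MYC+EX3 tumours (SE 0.17, limma adjusted p = 8.01e-05) and 0.37 in MYC tumours (adjusted p = 0.085). Between the 2 kinds of tumour it was 0.73 (SE 0.20, adjusted p = 0.0583). At day 4 Psmd9 did not follow MYC, with 20.1, 21.6, 24.2, 16.9 and 22.1 RPKM in WT and 18.7, 23.3, 18.8, 18.8 and 22.6 in MYC livers.

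Psmd7 had 5.29 to 8.88 RPKM in 4-OHT livers with a median of 6.79, then 9.53, 8.61 and 11.8 in MYC tumours and 11.4, 11.9 and 14.03 in MYC+EX3 tumours. One MYC tumour fell within the range of the 4-OHT livers, and no MYC+EX3 tumour did. Its log2 change was 0.47 in MYC tumours (SE 0.14, limma adjusted p = 0.0146) and 0.76 in MYC+EX3 tumours (SE 0.14, adjusted p = 3.72e-04). Psmd14 had 7.49 to 13.3 RPKM in 4-OHT livers with a median of 9.40, then 16.2, 11.5 and 14.9 in MYC tumours and 12.0, 14.6 and 15.8 in MYC+EX3 tumours. The groups overlapped in both comparisons, with a log2 change of 0.52 in each (adjusted p = 0.0171 and 0.0134).

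Psmd3, a lid subunit, had 5.89 to 8.02 RPKM in 4-OHT livers with a median of 6.51, then 10.9, 7.64 and 10.6 in MYC tumours and 8.61, 10.0 and 12.4 in MYC+EX3 tumours. Its log2 change was 0.47 in MYC tumours (SE 0.13, limma adjusted p = 0.00946) and 0.55 in MYC+EX3 tumours (SE 0.13, adjusted p = 0.0024). Psmc5, an ATPase, was the remaining gene whose MYC+EX3 tumours did not overlap the 4-OHT livers, at 22.7, 25.4 and 26.6 RPKM against 16.7 to 21.8. In MYC tumours it had 30.0, 19.7 and 22.9 RPKM (log2 change 0.34, adjusted p = 0.0446). Thus 4 of 34 members did not overlap in MYC+EX3 tumours, against 56.1% of all genes, and in MYC tumours 0 of 34, against 35.2%. The Psmc5 call in MYC tumours was lost in 10 of 13 fits that left out 1 library and in 7 of 11 other alternatives (0.18 without MYC tumour replicate 1). At the low end of the cap stood Psmd11, a lid scaffold subunit, with 3.28 to 5.40 RPKM in 4-OHT livers and 6.31, 3.78 and 4.17 in MYC tumours (log2 change 0.09), and Psmc3, an ATPase, with 16.9 to 26.3 and then 28.0, 18.1 and 21.5 (0.12).

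Psmd5, Psmd9 and Psmd10 are named as cap subunits but act as chaperones of its base and leave the finished particle. All 3 were called higher in MYC+EX3 tumours, with log2 changes of 0.36, 1.11 and 0.41. The Psmd5 call (limma adjusted p = 0.0498) was lost in 9 of 13 fits that left out 1 library and in 7 of 11 other alternatives. Psmd10, also known as gankyrin, had 3.21 to 5.07 RPKM in 4-OHT livers, 5.003, 4.76 and 5.86 in MYC tumours and 5.05, 5.22 and 6.14 in MYC+EX3 tumours. Those values overlapped, although the change passed the test in MYC tumours too (log2 change 0.35, limma adjusted p = 0.0296). At day 4 none of the 3 was called with MYC, at 0.28, -0.03 and 0.22.

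In the core the catalytic subunits again stayed below the threshold. Psmb5 had 14.2 to 22.6 RPKM in 4-OHT livers with a median of 18.1, then 22.0, 16.6 and 20.0 in MYC tumours and 18.3, 22.3 and 23.8 in MYC+EX3 tumours (log2 changes 0.16 and 0.29). Psmb6 had 16.9 to 24.6 RPKM with a median of 22.3, then 29.0, 20.7 and 23.0, and 21.2, 24.2 and 25.9 (0.22 and 0.20). Psmb7 had 5.37 to 7.54 RPKM with a median of 6.57, then 9.23, 5.95 and 6.72, and 6.54, 7.45 and 7.74 (0.16 and 0.17). MYC tumour replicate 1 was the highest of its group for all 3 genes and lay above every 4-OHT liver for Psmb6 and Psmb7.

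Of the alpha ring, Psma5 was called in both tumour comparisons. It had 8.06 to 13.997 RPKM in 4-OHT livers with a median of 11.1 and 18.7, 12.2 and 13.7 in MYC tumours (log2 change 0.42, limma adjusted p = 0.0452). That call was lost in 10 of 13 fits that left out 1 library and in 6 of 11 other alternatives (0.25 without MYC tumour replicate 1). Psma6 had the smallest alpha change, with 12.7 to 18.7 RPKM against 18.8, 13.5 and 17.5 (0.11). Of the other beta subunits, Psmb3 had 5.79 to 8.29 RPKM against 10.2, 6.89 and 8.93 (0.27, adjusted p = 0.104), and Psmb4 21.8 to 33.7 against 38.0, 24.3 and 28.0 (0.13). In all 4 genes MYC tumour replicate 1 exceeded every 4-OHT liver.

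No member was called between MYC+EX3 and MYC tumours, where 4.13% of all genes were; 1 member, Psmd9, lay under an unadjusted p of 0.05, as did 2089 of all 11854 genes. The interval lay within 1.5-fold for 30 of 34 members. After rescaling, Psmd9 was called there with a log2 change of 0.72 (limma adjusted p = 0.0426), against 4.91% of all genes.

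The median over all genes tested was itself raised in tumours by 0.19 and 0.23 on the log2 scale, so values relative to it are given here. After rescaling to a common median ratio, 3 members (Psmd3, Psmd7 and Psmd14) were called in MYC tumours, against 50.5% of all genes, and 5 (Psmd3, Psmd7, Psmd9, Psmd10 and Psmd14) in MYC+EX3 tumours, against 61.1%. In MYC+EX3 tumours their log2 changes were then 0.35, 0.56, 0.90, 0.22 and 0.31. All the called genes were genes of the non-ATPase group on that scale. The authors' deposited table called Psmd3 higher in MYC tumours (log2 0.33, adjusted p = 0.0172), where it called 44.5% of its genes. Its median log2 change over the members was 0.0019 in MYC tumours and 0.109 in MYC+EX3 tumours. In MYC+EX3 tumours the authors' deposited table called 6 members higher (Psmc5, Psmd3, Psmd7, Psmd9, Psmd12 and Psmd14), where it called 60.7%. It called Psma8 lower in both, by -1.30 and -1.16, on the low levels given above.

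Single libraries moved the tumour counts. The share of all genes called in each of these fits is not given here. The counts therefore do not show whether the members moved apart from other genes. In MYC tumours the count was 0 without MYC tumour replicate 3, 3 without replicate 1 and 4 without 4-OHT replicate 2, 6 or 7. In MYC+EX3 tumours it was 3 without MYC+EX3 tumour replicate 3, 5 without replicate 2 and 23 without 4-OHT replicate 1. Psmd3, Psmd7 and Psmd9 were called in MYC+EX3 tumours under all 24 alternatives that were run. At day 4, the MYC+EX3 against WT count was 2 without WT replicate 4, WT replicate 5 or MYC replicate 4. The count of MYC+EX3 against EX3 was 0 without EX3 replicate 2, 4 or 5 or MYC+EX3 replicate 1, 2 or 4, and 2 without MYC replicate 4. Without MYC tumour replicate 1, Psmd9 was called between the 2 kinds of tumour. Xist and Ddx3y marked all 3 MYC tumours as male, beside 2 of 3 tumours with both alleles and 4 of 7 reference livers, and with sex as a term the MYC tumour count was 2. With only the 4 4-OHT livers whose titles hold S14, the counts were 0 in MYC and 3 in MYC+EX3 tumours.

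The number of reads a member gained with depth was not the same for all members, which bears on how far RPKM corrects for depth. Log2 reads were fitted on log2 depth within groups. Groups were split by keratin set at day 4 and by S14 or other titles in the 4-OHT livers. MYC replicate 4 stood alone in its set and did not enter. A slope of 1 means that reads grow as the library does. The median slopes over all genes hold only genes above a minimum of mean reads. At day 4 they fell from 1.66 in 1439 genes under 5 RPKM to 0.36 in 205 genes of 160 RPKM or more. The 34 members had a median of 0.77, from 0.23 to 1.53, with 0.48 in the alpha ring, 1.05 in the ATPases and 0.96 in the non-ATPase genes. In the tumour set the members' median slope was 0.63, and the median over all genes fell from 1.77 to 0.08. Psmd7 had slopes of 1.03 and 1.33, Psmd14 1.06 and 0.75, and Psmd9 1.502 and 0.13 in the 2 sets.

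**Figure D3:**
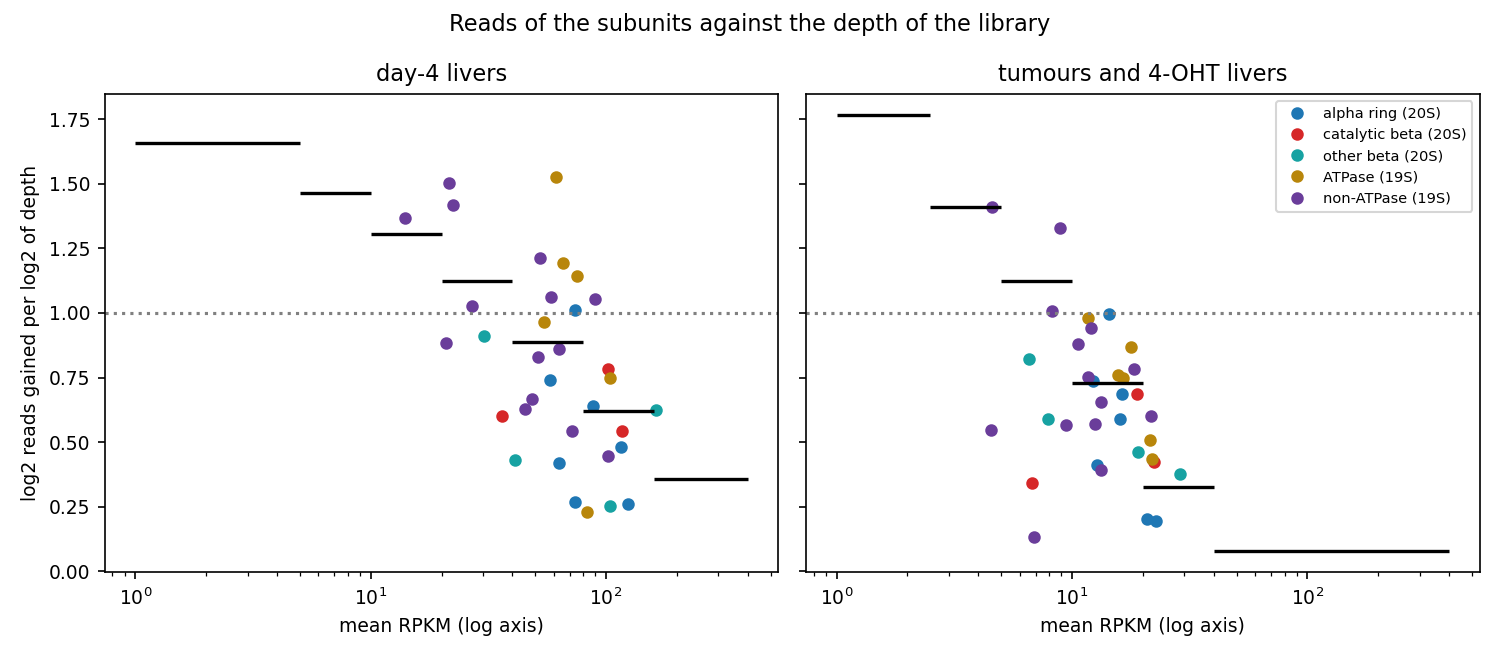
Slope of log2 reads on log2 depth within groups, for each subunit gene but Psma8 and Psmb11, against its mean RPKM on a log axis. Colours give the role, in the day-4 livers and in the tumour set. Black bars are the median slope of genes above a minimum of mean reads in a range of RPKM. They fall from left to right, from 1.66 to 0.36 and from 1.77 to 0.08. The dotted line at 1.00 is reads growing as depth does.

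Across the 34 members without Psma8 and Psmb11, the log2 change also went with the level. Pearson's r between the log2 of the reference group's mean RPKM and the change was -0.50 in MYC against WT and -0.45 in MYC+EX3 against WT. It was -0.38 in MYC tumours and -0.46 in MYC+EX3 tumours, so members of low RPKM tended to have the larger changes. In EX3 against WT it was 0.02. The reference level also enters the change with a minus sign, and its part in these r was not tested. These r are over genes measured in the same libraries, which also differ in depth, and the share of depth in them was not tested.

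Genes that serve the proteasome without a Psma to Psmd name were read from 8 lists. The assembly chaperones had larger changes than the subunits they build; that difference was not tested. Psmg1, Psmg2, Psmg3 and Psmg4, which pair up and build the alpha ring, were called higher in each of the 4 comparisons with WT or 4-OHT livers. Pomp, which helps the beta subunits join and is degraded when the core is complete, was called in none of them on the deposited scale, and lower in MYC+EX3 tumours after rescaling (-0.24). Thus 4 of 5 measured chaperones were higher, with a list median log2 change of 0.70, 0.77, 1.06 and 1.15 in MYC livers, MYC+EX3 livers, MYC tumours and MYC+EX3 tumours, beside 0.07, 0.05, 0.19 and 0.23 over all genes; the shares of all genes called there were 22.3%, 24.1%, 49.8% and 60.6%, and the counts of the lists that follow are to be read against the same shares.

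Psmg2 had 14.2, 7.23, 12.4, 13.8 and 10.9 RPKM in WT, 29.8, 28.6, 23.4, 33.7 and 16.1 in MYC and 32.0, 33.2, 22.7, 28.0 and 24.2 in MYC+EX3 livers. Every liver with MYC lay above every WT liver (log2 changes 1.09 and 1.21, limma adjusted p = 2.41e-04 and 7.05e-05). In EX3 livers it ranged from 9.80 to 13.3 RPKM, within the WT range. In 4-OHT livers Psmg2 had 2.05 to 3.70 RPKM with a median of 2.97, then 7.47, 6.52 and 9.46 in MYC tumours and 6.97, 9.42 and 10.2 in MYC+EX3 tumours. Those groups did not overlap either (log2 changes 1.17 and 1.33, adjusted p = 3.90e-05 and 5.74e-06).

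Psmg1 ranged from 20.9 to 28.7 RPKM in WT and from 32.6 to 55.2 in MYC livers, and from 3.34 to 6.94 in 4-OHT livers and 9.12 to 17.04 in MYC tumours. Psmg3 ranged from 18.5 to 31.4 RPKM in WT and from 36.7 to 76.6 in MYC livers, and from 3.79 to 7.92 in 4-OHT livers and 9.11 to 16.2 in MYC tumours. Neither gene's MYC range touched its reference range at either stage. Psmg4 had 17.4 to 31.9 RPKM in WT and 31.5 to 60.2 in MYC livers, overlapping slightly, and 3.75 to 6.32 in 4-OHT livers and 6.66 to 10.4 in MYC tumours, without overlap. Pomp had 17.7 to 19.8 RPKM in WT and 16.4 to 22.2 in MYC livers, and 3.29 to 4.51 in 4-OHT livers and 3.34 to 4.396 in MYC tumours.

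**Figure D4:**
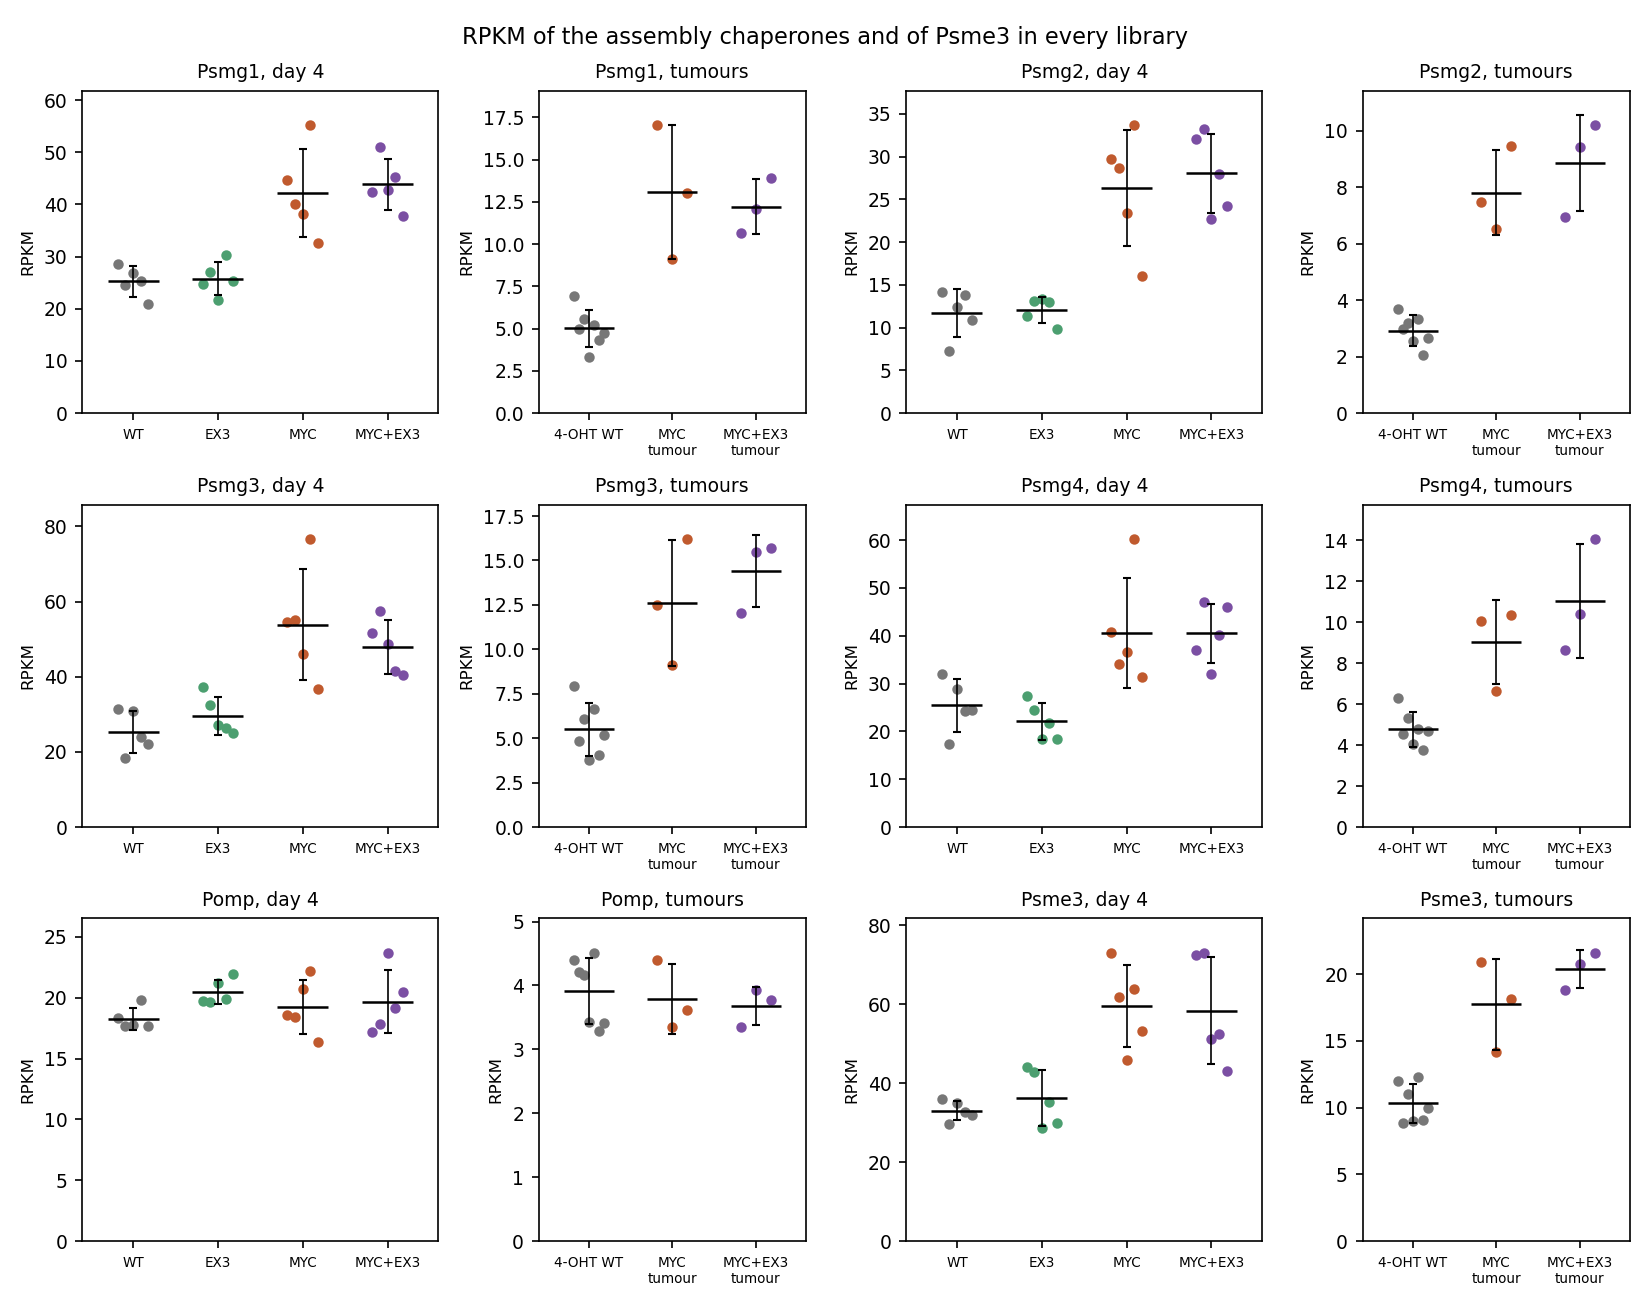
RPKM of the 5 assembly chaperones measured and of Psme3 in every library, with the mean as a bar and the SD as a whisker. For Psmg1 to Psmg4 and Psme3 the libraries with MYC are above the WT livers at day 4 and above the 4-OHT livers in tumours, with a slight overlap for Psmg4 at day 4, and for Pomp all groups overlap.

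Of 4 other activators and inhibitors of the core, 1 was called in MYC livers, MYC+EX3 livers and MYC tumours and 2 in MYC+EX3 tumours, all higher. Psme3, the nuclear activator PA28 gamma, was in each of these counts. It had 35.9, 29.7, 34.9, 32.7 and 31.9 RPKM in WT and 73.0, 61.9, 45.8, 63.8 and 53.1 in MYC livers, with no overlap (log2 change 0.82, limma adjusted p = 7.28e-04). In 4-OHT livers it had 8.83 to 12.3 RPKM, then 20.9, 14.1 and 18.1 in MYC tumours and 18.8, 20.7 and 21.6 in MYC+EX3 tumours (log2 changes 0.72 and 0.93). The other gene called, in MYC+EX3 tumours, was Ecm29, a scaffold that clamps core and cap, listed as AI314180 (log2 change 0.37). After rescaling, Psme4, a single-chain activator of the core, was called lower in both tumour groups (-0.26 and -0.24).

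Of 9 ubiquitin receptors and deubiquitinases that dock on the cap, 2 were higher in MYC and in MYC+EX3 livers and 5 in each kind of tumour, where 22.3%, 24.1%, 49.8% and 60.6% of all genes were called. Uchl5, a deubiquitinase that binds the cap, had 9.43 to 12.6 RPKM in WT and 16.7 to 33.9 in MYC livers (log2 change 0.90, limma adjusted p = 2.91e-04). In 4-OHT livers it had 2.65 to 3.68 RPKM, then 8.01, 7.86 and 10.0 in MYC tumours and 9.48, 10.5 and 11.8 in MYC+EX3 tumours (1.197 and 1.468). Ubqln4, a shuttle receptor, was the other gene called in all 4 comparisons, with log2 changes of 0.80, 0.77, 0.81 and 0.88. Usp14, a deubiquitinase at the cap, was called in both kinds of tumour, Ubqln2 in MYC tumours (0.58) and Rad23b in MYC+EX3 tumours (0.47). Without MYC tumour replicate 3 the calls of Usp14 (0.21, limma adjusted p = 0.248) and Ubqln2 (0.38, adjusted p = 0.146) in MYC tumours were lost, and that of Rad23b was lost without MYC+EX3 tumour replicate 2 or 3. No gene of any of the 8 lists was called for a different MYC effect with EX3 at day 4.

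A pair of immunoproteasome subunits went the other way in tumours. Psmb8 and Psmb9, the interferon-inducible forms of the chymotrypsin-like and caspase-like sites, fell in both kinds of tumour, and Psmb10, Psme1 and Psme2 did not pass the test on the deposited scale. Psmb8 had 12.3 to 19.2 RPKM in 4-OHT livers with a median of 16.3, then 5.31, 6.48 and 5.45 in MYC tumours and 3.60, 3.48 and 3.52 in MYC+EX3 tumours. Psmb9 had 6.80 to 14.2 RPKM with a median of 9.91, then 3.06, 3.83 and 3.02, and 2.36, 2.49 and 1.73. No tumour reached the lowest 4-OHT liver for either gene.

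On the log2 scale Psmb8 fell by 1.31 in MYC tumours and by 1.88 in MYC+EX3 tumours (limma adjusted p = 2.92e-06 and 6.17e-08). Psmb9 fell by 1.37 and by 1.80 (adjusted p = 4.22e-05 and 1.84e-06). Psmb8 was also lower in MYC+EX3 than in MYC tumours (log2 change -0.57, adjusted p = 0.0415), a call kept in 10 of 22 alternatives. After rescaling 4 of the 5 genes of the list were called lower in each kind of tumour, where 50.5% and 61.1% of all genes were called. At day 4 none of the 5 was called with MYC, where Psmb8 had a log2 value of -0.12 and Psmb9 of -0.05.

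Set against its constitutive counterpart in the same library, Psmb8 was 0.817 to 1.02 times Psmb5 in 4-OHT livers, 0.241 to 0.390 times in MYC tumours and 0.148 to 0.197 times in MYC+EX3 tumours. Psmb9 was 0.361 to 0.635, 0.106 to 0.186 and 0.0668 to 0.111 times Psmb6, and Psmb10 was 2.38 to 3.04, 2.03 to 2.70 and 1.80 to 2.08 times Psmb7. The first 2 ratios did not overlap between any of the 3 groups of libraries but for those of Psmb9 in the 2 kinds of tumour. Summed markers of other cell types are given beside these: 7 macrophage markers summed to 111 to 156 RPKM in 4-OHT livers, 39.6 to 120 in MYC tumours and 66.1 to 76.8 in MYC+EX3 tumours, and the 4 lymphocyte markers to 5.05 to 8.79, 1.63 to 9.24 and 4.02 to 4.91. In both lists the MYC tumours overlapped the 4-OHT livers and the MYC+EX3 tumours lay below them. The 5 endothelial markers summed to 29.3 to 46.0, 22.8 to 30.6 and 20.8 to 26.8 RPKM. No marker of these lists was at 0 in every library, and their part in the fall was not tested.

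**Figure D5:**
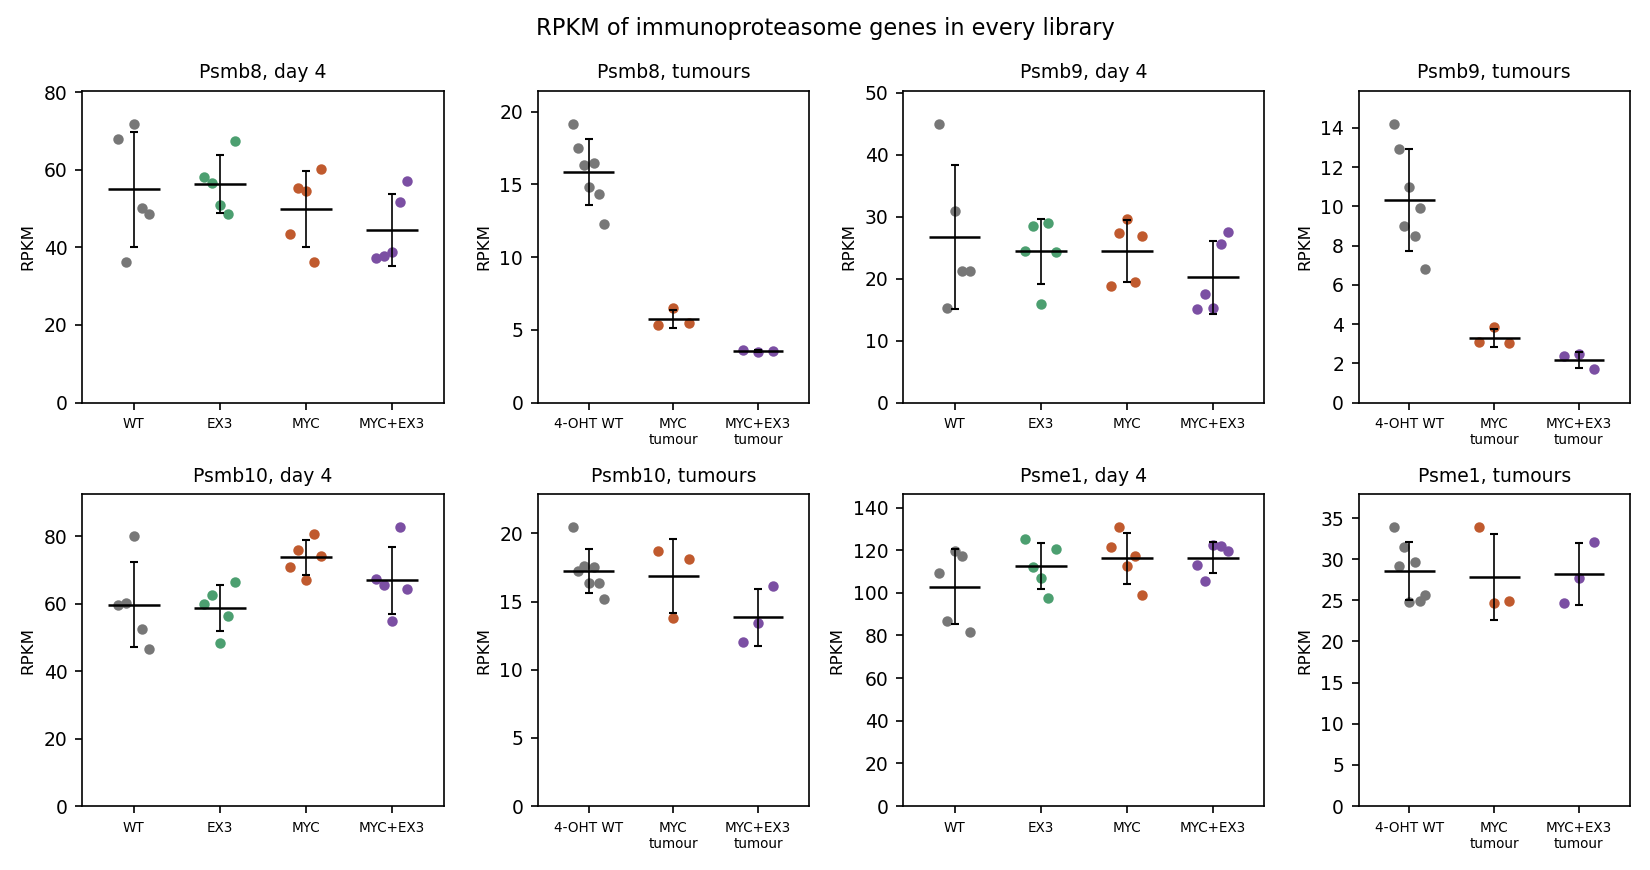
RPKM of Psmb8, Psmb9, Psmb10 and Psme1 in every library, with the mean as a bar and the SD as a whisker. Psmb8 and Psmb9 are lower in all 6 tumours than in all 7 4-OHT livers, while their day-4 groups overlap, and Psmb10 and Psme1 overlap between the tumours and the 4-OHT livers.

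Genes around NRF1, the factor that raises subunit transcription when the proteasome is impaired, were not higher in any comparison with WT or 4-OHT livers. Of 6 genes, none was called in MYC livers, 2 were lower in MYC+EX3 livers and 3 were lower in each kind of tumour, where 22.3%, 24.1%, 49.8% and 60.6% of all genes were called. Sel1l, of the complex that passes NRF1 out of the endoplasmic reticulum, had 39.4, 50.2, 49.5, 43.3 and 57.5 RPKM in WT and 36.4, 34.03, 26.0, 28.2 and 27.0 in MYC+EX3 livers (log2 change -0.65, limma adjusted p = 0.0187). In MYC and MYC+EX3 tumours its log2 changes were -0.49 and -0.48. Ddi2, the protease that cuts NRF1, and Ngly1, which removes its sugars, fell in both kinds of tumour (Ddi2 -0.48 and -0.26, Ngly1 -0.34 and -0.56), and Ngly1 also in MYC+EX3 livers (-0.35). Nfe2l1, which encodes NRF1, passed no test on the deposited scale, with -0.16 in MYC livers and 0.02 and -0.20 in tumours. After rescaling it was called lower in MYC+EX3 tumours (-0.41, adjusted p = 0.0033), and Sel1l and Ngly1 were called lower in MYC livers (-0.58 and -0.43, adjusted p = 0.0283 and 0.0319). The Ddi2 call in MYC+EX3 tumours was lost without any 1 of 8 libraries, and the value was -0.16 when MYC+EX3 tumour replicate 1 was absent.

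NRF2 and its targets, which meet oxidative stress, had called members in opposite directions at day 4 and in tumours. Of 8 genes 3 rose in MYC livers and 4 in MYC+EX3 livers and none fell, where 22.3% and 24.1% of all genes were called. In tumours none rose, while 2 fell with MYC and 1 with MYC+EX3, against 49.8% and 60.6% of all genes. Srxn1, which reduces oxidised peroxiredoxins, had 59.8, 39.7, 48.5, 57.6 and 54.3 RPKM in WT and 129, 75.3, 66.0, 199 and 53.1 in MYC livers (log2 change 0.84, limma adjusted p = 0.0343). In 4-OHT livers it had 10.0 to 15.7 RPKM, then 13.4, 4.65 and 1.95 in MYC tumours and 3.91, 3.66 and 3.22 in MYC+EX3 tumours (-1.15 and -1.59). The tumours of MYC+EX3 lay below every 4-OHT liver, and 1 MYC tumour lay among them. The Srxn1 value in MYC tumours was -1.75 without MYC tumour replicate 1 and -0.61 without replicate 3, where the call was lost (limma adjusted p = 0.0825); in MYC livers the call was lost without WT replicate 2, 3 or 5 or MYC replicate 1 or 4. Nqo1, a quinone reductase, was called higher in MYC+EX3 livers (1.18) and lower in MYC tumours (-1.15). After rescaling none of the 8 was called in MYC livers and 4 were called higher in MYC+EX3 livers, against 23.3% and 24.5% of all genes. On that scale 4 were called lower in MYC tumours and 2 in MYC+EX3 tumours, against 50.5% and 61.1% of all genes.

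Of 7 genes of p97, the ATPase that pulls substrates free ahead of the proteasome, and its cofactors, none was called at day 4 and 2, Faf1 and Nsfl1c, rose in both kinds of tumour, where 49.8% and 60.6% of all genes were called. After rescaling Faf2, another cofactor, was called lower in both (-0.28 and -0.38). Faf1 had log2 changes of 0.41 and 0.67 and Nsfl1c of 0.55 and 0.51. Vcp, p97 itself, had 0.02 and 0.13 there and was not called. Of 6 genes of ubiquitin and its activating enzymes, none was called against WT at day 4. In MYC+EX3 against EX3 livers 1 was called higher and 1 lower, where 21.1% of all genes were called. Uba6, an activating enzyme, and Rps27a, a ubiquitin fusion gene, rose in both kinds of tumour (Uba6 0.57 and 0.58, Rps27a 0.49 and 0.51), again against 49.8% and 60.6% of all genes. Rps27a was not called in either after rescaling, and in MYC tumours it had 0.29 without MYC tumour replicate 1 (limma adjusted p = 0.113). Ubb, a polyubiquitin gene, had a log2 value of 0.01 in MYC tumours and did not pass the test.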

How the data were processed

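Total RNA of 33 mouse liver samples was sequenced with a stranded kit, per the labels' protocols. TopHat2 2.0.8, featureCounts 1.4.5-p1, DESeq2 and build mm9 are named, without roles, per the submitters' processing notes. The authors deposited 1 table of RPKM per gene and library, with their own log2 fold changes and adjusted p-values.

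From these, RPKM were tested as log2(RPKM + 1) with limma 3.58.1 in R 4.3.3 (trend, two-sided, Benjamini-Hochberg adjustment over all genes tested, threshold 0.05), on genes with at least 1 RPKM in at least 3 libraries, once for the 20 day-4 libraries and once for the 13 others. Intervals are 95%. The code was tested on simulated data. Whole reads were recovered for 20485 genes, and 100.0% of their values lay within 0.001 of a whole number; 1186 genes were at 0 in every library. The alternatives rescaled each set by median ratios or changed the pseudocount, filter, covariates or libraries. No count model was run on the recovered reads.

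No 2 libraries were identical, and replicates differed by at least 3.07 in chi-square per degree of freedom. Nothing in the labels says that replicates share more than a group; p-values measure only the spread between these samples, which may be technical. Values per library are given for the catalytic subunits, for the largest and smallest change of each other role and for some of the called genes. Psmc1, Psmd1, Psmd5, Psmd8, Psmd12 and Psmd13 were called in tumours and have no tumour values per library here. Members and lists were chosen with earlier results of these data known. Promoter positions are from GRCm38.p6 and not from the deposited table. Some genes counted in the lists are not reported here by name.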

Additional observations from a re-analysis of the deposited data

Results flagged for a closer look

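Of 225 groups of 4 to 10 libraries examined, 8 held a library standing far from the rest by Dixon's ratio; chance alone gives about 1 in 20. MYC replicate 4 was the highest MYC liver by a wide gap for Psmd14 (87.4 RPKM, next 66.9), Psmd13 (65.1, next 50.6) and Psmd5 (79.6, next 52.5). It is the MYC liver that holds skin keratins. Psmd9 was high in MYC+EX3 replicate 4 (29.4 RPKM, next 22.3) and in 4-OHT replicate 5 (6.57 RPKM, next 4.96). Psma5 was low in EX3 replicate 3 (51.4 RPKM, next 54.0). Of the listed pathway genes, Srxn1 was low in EX3 replicate 5 (50.6 RPKM, next 65.8) and Txnrd1 high in WT replicate 4 (67.7 RPKM, next 53.6).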

How the results depend on the processing

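Of 2173 values of single genes under alternatives, 1965 stayed on their side of the threshold (43 of these, called in neither fit, turned sign), 206 called values fell below it, 2 rose above it and no called value reversed. Counts of called members moved more. The share of all genes called in the same fit is not given beside the counts that follow. They therefore do not show whether the members moved apart from other genes. With median-ratio rescaling the counts were 0 in MYC, 0 in MYC+EX3 (against WT and against EX3), 3 in MYC tumours, 5 in MYC+EX3 tumours and 1 between tumours. Sample quality weights gave 4 in MYC+EX3 against WT, 5 against EX3 (with a median of -0.0762), 0 in MYC tumours, 24 in MYC+EX3 tumours and 1 between tumours. A depth term gave 4, 2, 11, 23 and 1 in the same order, and rescaling with the depth term 1 between tumours. Only the groups compared gave 0 in MYC against WT and 3 in MYC+EX3 against EX3. Libraries without keratins gave 1 in MYC against WT, 0 in MYC+EX3 against EX3 and a median of -0.0948 in MYC+EX3 against WT, and those with keratins 0.22; a keratin term gave 4 in MYC+EX3 against WT, and with rescaling 0 against EX3. The title-number term with rescaling gave 0 in MYC, MYC+EX3 and against EX3, and the title-number block 0 in MYC and MYC+EX3 against WT. A sex term gave 2 in MYC tumours, and the 4-OHT livers with S14 titles 0 and 3. Leaving out 1 library gave 2 to 3 in MYC, 1 to 2 in MYC+EX3, 0 to 2 against EX3, 0 to 10 in MYC tumours, 3 to 23 in MYC+EX3 tumours and 0 to 1 between tumours. The depth, rescaled depth, rescaled keratin and title-number alternatives were chosen after seeing the data. At day 4 keratins, depth and title numbers set apart much the same livers, so these alternatives are not independent checks. The cause of these shifts was not tested. No paired analysis was possible because no replicate number in the labels is shared between groups. The median SE was 0.12 for day-4 pairs of groups and 0.14 for tumours against 4-OHT livers. It was 0.17 between tumours and for the test of whether the MYC effect differed with EX3. Changes of that size were not detectable, and larger ones also missed the threshold, up to 0.73 between tumours (Psmd9).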
